A study of Mus musculus with 6 samples.

Results

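Integrins are receptors of 1 alpha and 1 beta chain that hold a cell to its matrix or to another cell, and focal adhesion proteins tie the tails of those chains to actin. The 43 genes described here are all 18 integrin alpha chains, all 8 beta chains and 17 proteins of the adhesion site found by gene symbol among the 50600 genes of the deposited table. The rule itself uses no measured value, but it was set with earlier results of these data known. The 26 chains were divided by known ligand into 19 that bind matrix proteins or shared ligands and 7 that are carried by leukocytes (Itgal, Itgam, Itgax, Itgad, Itgae, Itgb2 and Itgb7). RNA came from the cardiac side population (SP), the heart cells that pump out the Hoechst dye, sorted whole from a heart suspension depleted of cardiomyocytes and erythrocytes. Of 6 libraries, 3 were from wt mice (C57BL/6NRj) and 3 from mice labelled flt3L-/- whose strain is given as C57BL/6Flt3Ltml/mx with a C57BL/6N background, an allele of the gene for the Flt3 ligand. The cells of 4 mice aged 8 to 12 weeks were pooled for each library, so a library and not a mouse is the replicate. A wt and an flt3L-/- sort were made on each of 3 dates, called sorts 1, 2 and 3 here (22 and 24 August 2016 and 29 August 2017).

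An integrin works only as a pair, so a chain needs a partner to reach the surface. Itgb1 pairs with most of the matrix-binding alpha chains, Itgav pairs with several beta chains to bind ligands that carry the RGD motif and latent TGF-beta, and Itgb2 and Itgb7 pair with the leukocyte alpha chains. Talins and kindlins bind the beta tail and switch the receptor on, the complex of ILK, a PINCH protein (Lims1 or Lims2) and a parvin links it to actin, and paxillin, vinculin, zyxin, Bcar1 and the kinases Ptk2 and Ptk2b build and signal from the site. Kindlin-3 (Fermt3), gamma-parvin (Parvg) and Ptk2b are known chiefly from blood cells.

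Counts per library summed to between 24370913 and 31145519, and a count of 3 stood for 0.109 to 0.127 CPM (library-scaled counts, the unit used below), a limit that covers counting error only. Reads of Flt3l, the gene named in the label, were not fewer in the libraries labelled flt3L-/-, with 373, 293 and 365 counts in sorts 1, 2 and 3 against 223, 279 and 324 in wt, so the groups are called by their labels throughout. Endothelial markers were high in each library (Pecam1 between 873 and 1524 CPM), as was the dye pump gene Abcg2 (147 to 274 CPM). Markers of other cell types differed between the libraries. The summed level of 8 leukocyte markers, led by Ptprc, was 312, 839 and 1665 CPM in wt sorts 1, 2 and 3, and 395, 953 and 264 CPM in those labelled flt3L-/-. That of 7 fibroblast markers was 15805, 8518 and 6558 CPM in wt, and 6422, 9920 and 3316 CPM in those labelled flt3L-/-. In sorted pools, fewer cells of a type and less RNA per cell cannot be told apart.

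Itgb1 was the leading integrin gene of these cells. It lies on chromosome 8 at 128685654 to 128733200 of the mm10 build (plus strand, ENSMUSG00000025809), and none of its exon bases is shared with another gene. Its level was 1309, 1346 and 1456 CPM in wt sorts 1, 2 and 3, and 1572, 1233 and 1689 CPM in those labelled flt3L-/-. The groups overlapped, and its highest and lowest library differed by only 1.37-fold. Per kilobase of exon, which allows genes to be compared, Itgb1 made up between 77.3% and 96.7% of the RNA of the 8 beta chains. Its wt level of 336 ± 18.7 CPM per kb (SD, n = 3) was above that of Itgb2 in each library, and Itgb2, Itgb7 and Itgb5 followed with wt libraries that overlapped from 1 to the next.

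No single alpha chain held that place. Itga5, the fibronectin receptor chain, had 42.9 ± 11.4 CPM per kb in wt, the laminin receptor chain Itga6 had 31.9 ± 17.7 and the collagen receptor chain Itga1 had 20.4 ± 3.32 (SD, n = 3). Their wt libraries overlapped with those of the next chain in the order, as did those of every neighbouring pair of alpha chains except Itga2 and Itgae. Itga5 made up between 21.2% and 33.4% of the alpha chain RNA per kb, Itga6 between 10.7% and 29.8%, and Itga1 between 9.67% and 27.8%. At the low end, the epithelial beta chain Itgb6 had 0 to 10 counts and the epithelial kindlin Fermt1 had 0 to 2 counts in a library. These were the only members under the filter of more than 1 CPM in at least 2 libraries, so 41 of the 43 were tested.

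Among the 17 adhesion site proteins of the rule, Lims2 (PINCH-2) had the highest level per kb, 194 ± 54.9 in wt (SD, n = 3). Its wt libraries lay above those of every other one of the 17. Actn4, an adhesion site protein outside the rule, was higher, with 288, 278 and 313 CPM per kb in wt sorts 1, 2 and 3. Ilk followed with 97.4 ± 7.32 CPM per kb, but 89.7% of its exon bases lie in Rrp8 or Taf10, and reads on them were counted without strand, so the share that comes from Ilk is uncertain. Fermt2 (kindlin-2) had 55.9 ± 2.99 and Tln1 (talin-1) 50.8 ± 1.95 CPM per kb. Lims2 was 4.0 to 8.01 times as high as Lims1 per kb, the libraries of wt sort 1 and of sort 3 labelled flt3L-/- marking the ends of that range. Fermt3, Ptk2b, Tln2, Parvg and Parvb were low, from 3.07 down to 1.05 CPM per kb on average in wt.

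**Figure D1:**
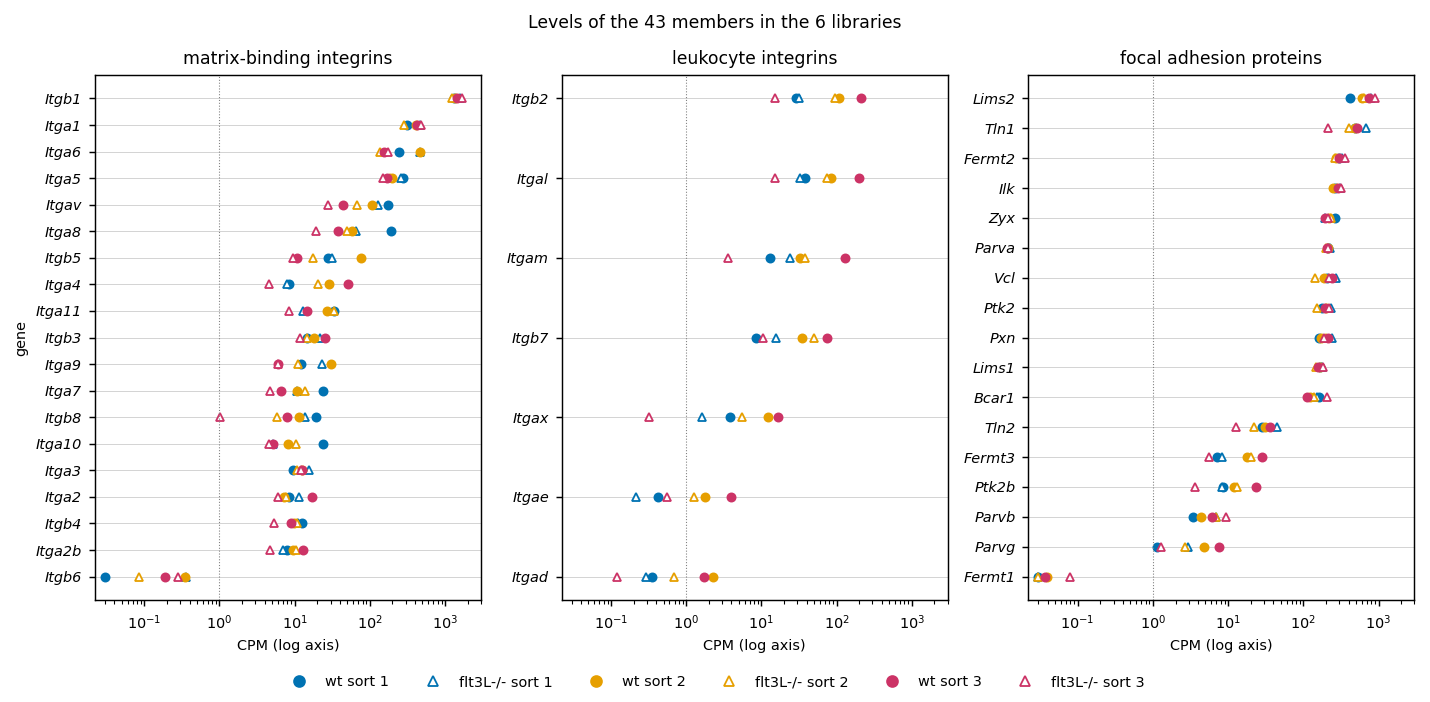
CPM of the 43 genes in each library on a log axis, with 1 row per gene, filled circles for wt, open triangles for libraries labelled flt3L-/- and a colour for each sort. Values of 0 are drawn at the left edge and the dotted line marks 1 CPM. The points of Itgb1 and of most adhesion site proteins lie close together, and those of the leukocyte integrins spread 8.69-fold or more within a row.

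The first comparison asked which of these genes differed between the libraries labelled flt3L-/- and wt. When genotype and date were fitted together by edgeR's quasi-likelihood method, 0 of the 41 members tested had an adjusted p under 0.05, as did 0 (0%) of all 13475 genes tested. DESeq2 called 21 genes and 0 members. At an unadjusted p under 0.05, 3 members were lower (Itgav, Itga8 and Itgb8) against 2.49% of all genes tested, and 1 was higher (Parvb) against 1.11%. Itgad passed the filter on low values only through 2 wt libraries, so it had to be lower in the other group, and it is left out of the counts and medians that follow. The fitted value was below 0 for 28 of the other 40 members and above 0 for 12, with a median log2 fold change of −0.33, against a median of 0.00 over all genes tested. By class the median was −0.38 for the 18 matrix-binding chains tested, −1.18 for the 6 leukocyte chains and 0.03 for the 16 adhesion site proteins. In sort 1, 16 of the 40 were lower in the library labelled flt3L-/-, in sort 2 this held for 24 and in sort 3 for 28. Lower in each of the 3 sorts were 8 members (11.5% of all genes tested were), and higher in each were 3 (14.2%). Only Parvb had groups that did not overlap, which 6.45% of all genes tested had.

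**Figure D2:**
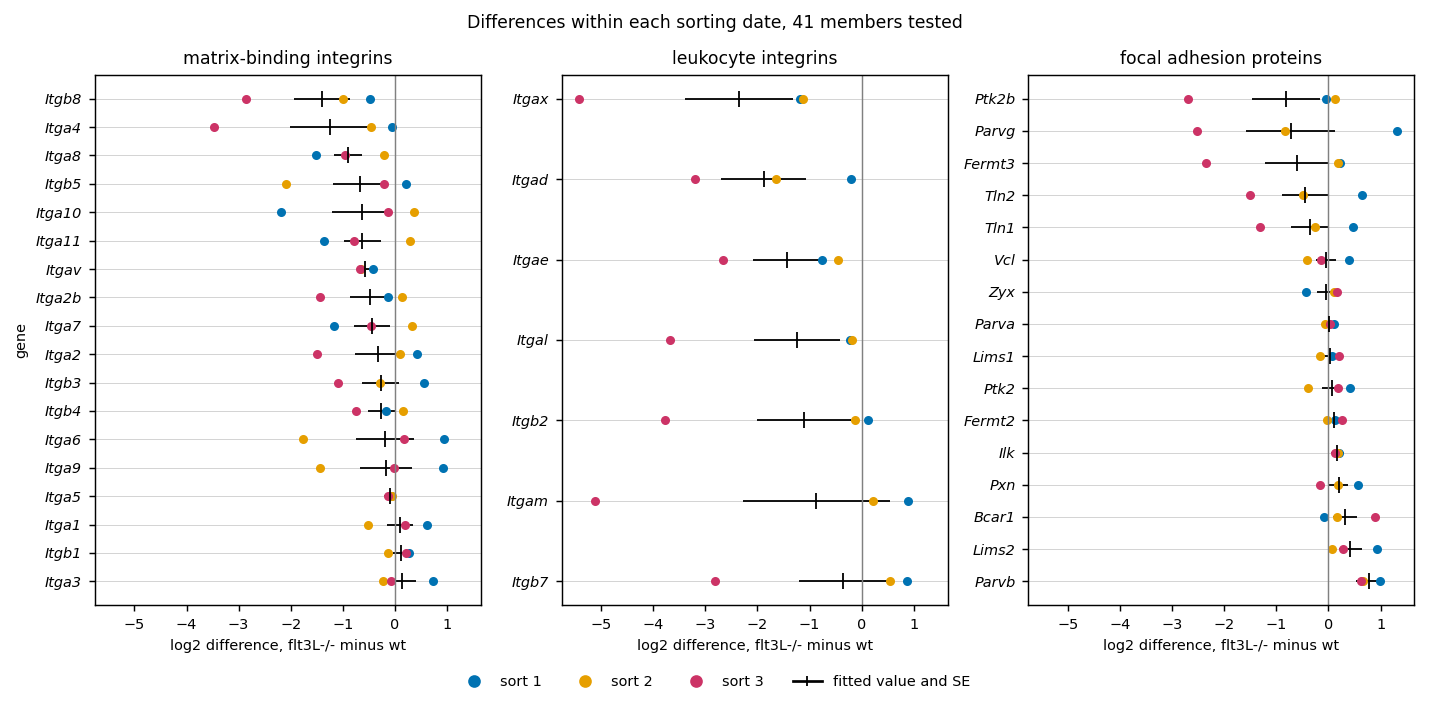
Log2 differences between the library labelled flt3L-/- and the wt library of the same date (coloured points, 1 per sort) for the 41 genes tested, with the fitted log2 fold change and its standard error (SE) in black. Each leukocyte integrin lies further left in sort 3 than in its other sorts, between −2.66 and −5.42. Itga4 (−3.48), Itgb8 (−2.85) and Ptk2b (−2.69) lie within that range in sort 3 too. The 3 points of Itgav and of Parvb lie close together on 1 side of 0.

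Itgav, the alpha chain of the vitronectin receptor, was measured at 172, 106 and 44.6 CPM in wt sorts 1, 2 and 3. In the libraries labelled flt3L-/- it had 129, 67.0 and 27.9 CPM. It was lower than wt within each date, by 0.42, 0.66 and 0.68 on the log2 scale, although the groups overlapped because both were lower in sort 3 than in sort 1. The log2 fold change was −0.58 (SE 0.13, unadjusted p = 0.00715, adjusted p = 0.973 in edgeR's quasi-likelihood test). Without the date in the model it was −0.53 with an unadjusted p of 0.437. Itgav is among the genes that the study listed from these libraries as lower, at an adjusted p under 0.05 in its edgeR test. Here none of the 13475 genes tested passed that threshold in edgeR, so those calls were not reproduced. The libraries are the same, so the direction of Itgav here is not independent evidence. The gene lies on chromosome 2 at 83724397 to 83806916 (plus strand, ENSMUSG00000027087).

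2 other matrix-binding chains had an unadjusted p under 0.05. Itga8, a partner of Itgb1 known from smooth muscle and other mesenchymal cells, had 188, 58.0 and 37.3 CPM in wt, and 65.4, 49.8 and 19.3 CPM in those labelled flt3L-/-. Its log2 fold change was −0.90 (SE 0.28, unadjusted p = 0.0242, adjusted p = 0.973 in edgeR's quasi-likelihood test). The library of wt sort 1 stood well above the other 5. Without sort 1 the log2 fold change was −0.58, and the unadjusted p of edgeR's test was 0.0984 without sort 1 and 0.0814 without sort 3. Itgb8, which pairs with Itgav to bind latent TGF-beta, had 19.2, 11.6 and 7.90 CPM in wt, and 13.8, 5.77 and 1.03 CPM in those labelled flt3L-/-, where the last value rests on 26 counts. Its log2 fold change was −1.40 (SE 0.53, unadjusted p = 0.0496, adjusted p = 0.973 in edgeR's quasi-likelihood test), and −0.73 without sort 3, where the unadjusted p was 0.0505.

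The sum of the mural markers shared its highest and lowest library with Itga8. The summed level of 8 mural markers was 900, 441 and 493 CPM in wt, and 553, 493 and 274 CPM in those labelled flt3L-/-. The mural and fibroblast sums were both lower in the library labelled flt3L-/- in sorts 1 and 3 and higher in sort 2, where Itga8 was lower. By gene, 3 of the 8 mural and 3 of the 7 fibroblast markers were lower in sort 2 as well. Dcn alone had 10551 of the 15805 CPM of the fibroblast sum in wt sort 1. These sums, and the ratios to them, thus follow the most abundant markers. Set against the mural markers per kb, Itga8 differed by −0.88, −0.43 and −0.14 on the log2 scale in the 3 sorts, and set against the fibroblast markers by −0.16, −0.49 and −0.07. Itgav per kb, set against 7 fibroblast markers, differed by 0.95, −0.94 and 0.21 in the 3 sorts, and set against 9 endothelial markers by −0.80, −0.40 and −0.88. The part of these cell types in the differences was not tested.

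Parvb (beta-parvin, an actin-binding partner of ILK) went the other way. It had 3.42, 4.38 and 6.07 CPM in wt sorts 1, 2 and 3, and 6.88, 6.96 and 9.46 CPM in those labelled flt3L-/-, each of which lay above all 3 wt libraries. The log2 fold change was 0.77 (SE 0.24, unadjusted p = 0.0257, adjusted p = 0.973 in edgeR's quasi-likelihood test), from 88 to 239 counts a library. With 1 sort left out its unadjusted p in edgeR's test lay between 0.0627 and 0.104. Lims2 and Ilk were the other 2 members higher in each sort. Lims2 had 419, 610 and 754 CPM in wt, and 800, 639 and 909 CPM in those labelled flt3L-/-, with a log2 fold change of 0.42 (SE 0.22, unadjusted p = 0.112), and 0.17 without sort 1. For Ilk the log2 fold change was 0.17 (SE 0.12), and for Taf10, whose exons it shares, 0.16 (SE 0.12).

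**Figure D3:**
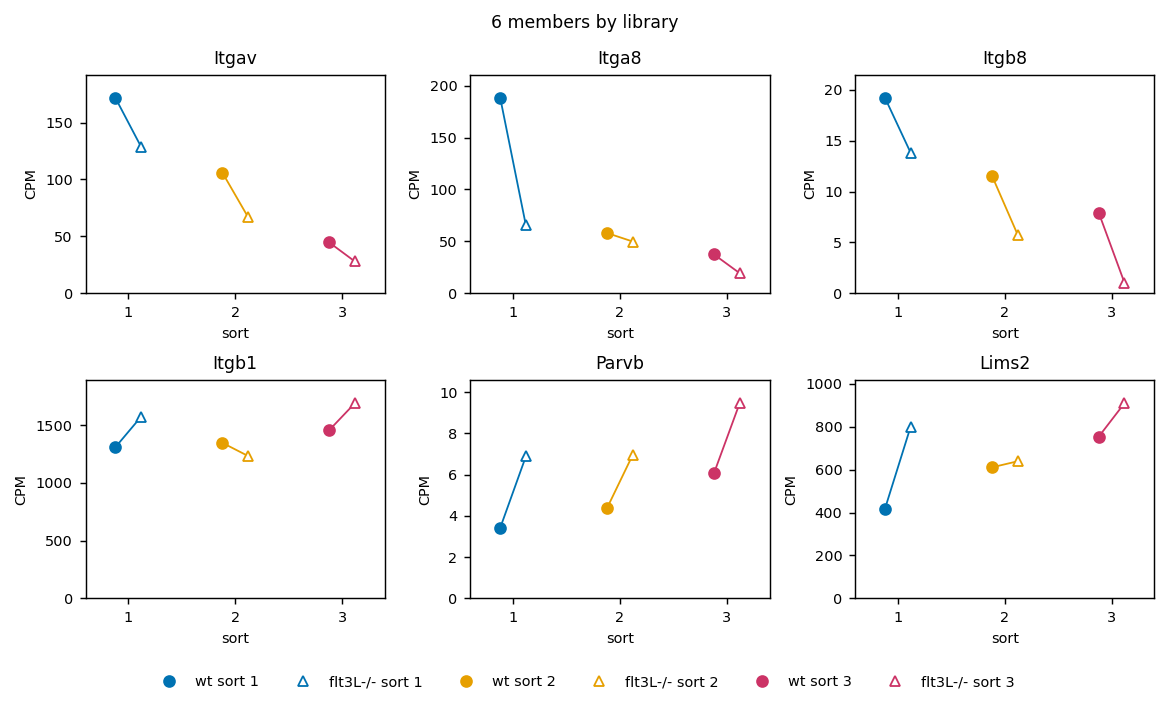
CPM of 6 genes (1 panel each, y axes from 0) in the 3 sorts, with the wt library (filled circle) and the library labelled flt3L-/- (open triangle) of a date joined by a line. Itgav, Itga8 and Itgb8 are lower in the library labelled flt3L-/- in each sort, Parvb and Lims2 are higher in each, and Itgb1 is higher in 2 of 3.

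The rest of the adhesion machinery differed little between the groups. Itgb1 itself had a log2 fold change of 0.12 (SE 0.17, unadjusted p = 0.51). Parva (alpha-parvin) ranged from 202 to 229 CPM over the 6 libraries, a 1.14-fold range, and Lims1 from 149 to 181 CPM. Fermt2, Lims1, Parva, Vcl, Zyx and Ptk2 (focal adhesion kinase) had fitted log2 fold changes between −0.05 and 0.11. Pxn (paxillin) had 0.20 (SE 0.18), and 0.01 without sort 1, and the scaffold Bcar1 (p130Cas) 0.32 (SE 0.23), and 0.04 without sort 3. Tln1 was the exception among the abundant ones, with 490, 484 and 520 CPM in wt, and 683, 403 and 210 CPM in those labelled flt3L-/-. Its direction turned between sorts 1 and 3, and so did that of Tln2. Over the 14 adhesion site proteins other than Fermt3, Parvg and Ptk2b, 13 were tested, and the median log2 fold change was 0.07.

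Among the other matrix-binding chains the sign often changed with the date. The laminin chain Itga6 had 245, 465 and 154 CPM in wt, and 469, 137 and 173 CPM in those labelled flt3L-/-, so it was higher in sorts 1 and 3 and lower in sort 2. Itgb5, a partner of Itgav, had 27.4, 75.9 and 10.9 CPM in wt, and 31.8, 17.7 and 9.42 CPM in those labelled flt3L-/-, with wt sort 2 far above the rest. Itga9 also had its highest value, 30.8 CPM, in wt sort 2. The collagen chains Itga10 and Itga11 and the laminin chain Itga7 were highest in wt sort 1, at 23.7, 33.6 and 24.1 CPM. Itga1 had a log2 fold change of 0.10 (SE 0.25), Itga3 of 0.14 (SE 0.26) and Itga5 of −0.09 (SE 0.12). Itga5 was lower in each sort, by 0.07, 0.06 and 0.14, and its fitted value lay within its SE of 0. Itga2, Itga2b, Itgb3 and Itgb4 lay between 4.67 and 25.6 CPM, with log2 fold changes between −0.48 and −0.26.

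The leukocyte integrins were mostly highest in wt sort 3. Itgb2, the shared beta chain, had 29.2, 106 and 208 CPM in wt sorts 1, 2 and 3, and 32.0, 96.6 and 15.1 CPM in those labelled flt3L-/-. The pair was nearly level in sorts 1 and 2 and 3.78 log2 units apart in sort 3. Itgal, the LFA-1 alpha chain, had 38.4, 85.0 and 197 CPM in wt, and 32.7, 74.8 and 15.3 CPM in those labelled flt3L-/-. Itgam, the alpha chain of Mac-1, had 13.0, 32.5 and 129 CPM in wt, and 24.0, 38.0 and 3.64 CPM in those labelled flt3L-/-. A separate gene model, Gm49368, shares 68.7% of the exon bases of Itgam, so reads on those bases cannot be assigned to either gene alone. Gm49368 took the same course, with 10.3, 25.6 and 105 CPM in wt, and 20.3, 29.9 and 2.89 CPM in those labelled flt3L-/-. Itgb7, which pairs with Itga4 and Itgae on lymphocytes, had 8.55, 34.4 and 74.3 CPM in wt, and 15.8, 50.2 and 10.5 CPM in those labelled flt3L-/-. For the 6 chains other than Itgad the highest library was wt sort 3, and for 4 of them the lowest was sort 3 labelled flt3L-/-. Among all 13475 genes tested, 1913 were highest in the first and 3398 lowest in the second.

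Itgax and Itgae, 2 rarer leukocyte chains, were lower in each sort. Itgax (CD11c), found on dendritic cells, macrophages and NK cells, had 3.81, 12.4 and 16.8 CPM in wt, and 1.64, 5.60 and 0.317 CPM in those labelled flt3L-/-. Its log2 fold change was −2.36 (SE 1.04, unadjusted p = 0.076, adjusted p = 0.973 in edgeR's quasi-likelihood test), and −1.18 without sort 3. Itgae (CD103) had 0.428, 1.78 and 3.91 CPM in wt, and 0.219, 1.27 and 0.554 CPM in those labelled flt3L-/-. Itgad had 9, 59 and 46 counts in wt, and 8, 16 and 3 in the libraries labelled flt3L-/-. Nothing is read from these counts, because of the way it passed the filter.

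Much of the leukocyte difference came with sort 3. Without it the median log2 fold change of the 6 chains was −0.11 in place of −1.18. Itgb2 went from −1.11 (SE 0.90) to −0.01, Itgam from −0.87 (SE 1.41) to 0.55, and Itgb7 from −0.35 (SE 0.85) to 0.71, with an unadjusted p of 0.0299 in edgeR's test. Itgax stayed lower without sort 3, with an unadjusted p of 0.0194 in edgeR's test, and Itgae had −0.67 with an unadjusted p of 0.332. Per kb, the 7 chains summed to 22.1, 70.1 and 156 CPM in wt, and 26.4, 70.3 and 12 CPM in those labelled flt3L-/-. The matrix-binding chains summed to 496, 507 and 465 CPM per kb in wt, and 566, 411 and 508 in the libraries labelled flt3L-/-. The leukocyte share of all integrin RNA per kb was thus between 2.31% and 25.1%. Itgb1 alone made up 302 to 414 CPM per kb of the matrix-binding sum, which therefore says little about the other chains. Of the 18 matrix-binding chains tested, 14 were also lowest in sort 3 labelled flt3L-/-, as were 3398 of all 13475 genes tested. The log2 ratio of the leukocyte to the matrix-binding sum differed by 0.07, 0.31 and −3.82 in the 3 sorts, with a mean of −1.15 ± 2.32 (SD, n = 3), and an exact sign-flip test over 3 sorts cannot give a p below 0.25.

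Leukocyte markers were highest and lowest in the same libraries as Itgb2 and Itgal. Ptprc, which encodes CD45, had 96.4, 247 and 596 CPM in wt, and 101, 237 and 79.2 CPM in those labelled flt3L-/-. All 8 leukocyte markers were highest in wt sort 3, none was at 0 in any library, and 7 were lowest in sort 3 labelled flt3L-/-. Per kb, Itgb2 stood at 1.82, 2.59 and 2.10 times Ptprc in wt, and at 1.90, 2.45 and 1.14 times in those labelled flt3L-/-. For Itgal these ratios were 1.11, 0.961 and 0.923 in wt, and 0.903, 0.881 and 0.539 in the libraries labelled flt3L-/-. In sort 3 the difference in Itgb2 was thus 3.78 log2 units in CPM and 0.87 relative to Ptprc. Other chains departed further from the markers. Relative to Ptprc per kb, Itgam differed by 0.82, 0.29 and −2.24 log2 units in the 3 sorts, and Itgb7 by 0.82, 0.60 and 0.08. The summed leukocyte chains, set against the 8 leukocyte markers, differed by −0.05, −0.32 and −1.22. The 6 NK cell markers summed to 99.5, 169 and 352 CPM in wt, and 47.2, 104 and 32.3 CPM in those labelled flt3L-/-, so they were lower in each sort, as Itgal and Itgax were. The sum of the 9 macrophage and monocyte markers went the way of Itgam. It was 35.4, 589.6 and 1665 CPM in wt, and 282, 947 and 93.2 CPM in those labelled flt3L-/-. Lyz2 alone had 17.1, 507 and 1527 CPM in wt, and 246, 844 and 67.4 CPM in those labelled flt3L-/-, so the sum largely follows that gene. Of the 9 markers, 5 were highest in wt sort 3. In the library labelled flt3L-/-, 2 were lower in sort 1, 1 in sort 2 and 7 in sort 3, and C1qb was higher in each sort. The 5 neutrophil markers summed to 1.83, 93.6 and 80.2 CPM in wt, and 123, 204 and 5.94 CPM in those labelled flt3L-/-. Both sums were thus higher in the library labelled flt3L-/- in sorts 1 and 2 and lower in sort 3, as was the sum of the 5 T cell markers. The part of these cells in the differences was not tested.

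**Figure D4:**
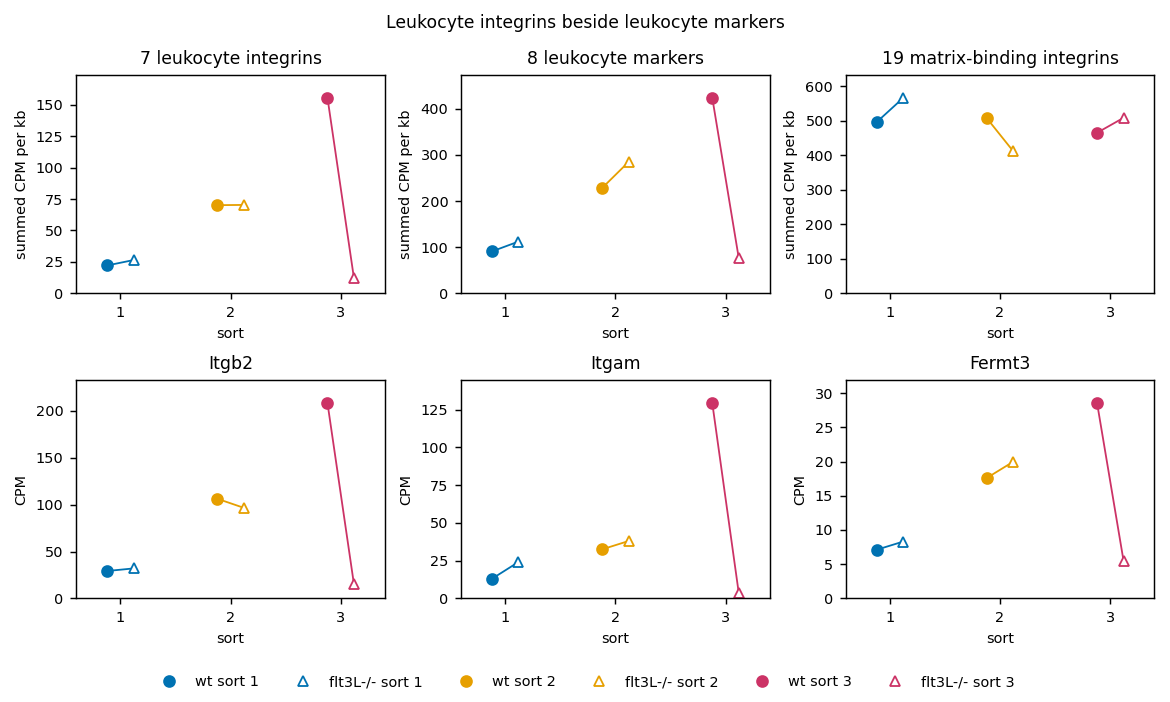
Summed CPM per kb of the leukocyte integrins, the leukocyte markers and the matrix-binding integrins (upper panels) and CPM of Itgb2, Itgam and Fermt3 (lower panels) in the 3 sorts, with y axes from 0. The leukocyte sums are highest in wt sort 3 and lowest in sort 3 labelled flt3L-/-. The matrix-binding sum stays between 411 and 566, of which Itgb1 alone makes up 302 to 414.

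7 members outside the leukocyte class were also highest in wt sort 3, of which Itga4, Fermt3, Ptk2b and Parvg are known from blood cells and Itga2, Itga2b and Itgb3 from platelets. The platelet marker Pf4 was between 1.13 and 3.52 CPM in all libraries. Pf4 and Ppbp were higher in the library labelled flt3L-/- in each sort, with log2 fold changes of 0.63 (SE 0.33) and 0.71 (SE 0.37). Gp1bb was lower in each, at −0.20 (SE 0.37), but 92.9% of its exon bases lie in Gm49601 or Sept5. Reads on those bases were counted without strand, so the share that comes from Gp1bb is uncertain. None of these 3 platelet markers was highest in wt sort 3. Itga4, which pairs with Itgb1 or Itgb7 to bind Vcam1 and fibronectin, had 8.32, 28.6 and 51.5 CPM in wt, and 8.01, 20.6 and 4.55 CPM in those labelled flt3L-/-. Kindlin-3 (Fermt3) had 7.11, 17.6 and 28.5 CPM in wt, and 8.30, 19.99 and 5.50 CPM in those labelled flt3L-/-. Ptk2b had 8.55, 12.1 and 23.7 CPM in wt, and 8.30, 13.2 and 3.60 CPM in those labelled flt3L-/-. Parvg had 1.13, 4.81 and 7.67 CPM in wt, and 2.91, 2.67 and 1.27 CPM in those labelled flt3L-/-. The widely used family members did not share this course, since Fermt2 ranged over 1.33-fold, Parva over 1.14-fold and Ptk2 over 1.55-fold, against 5.19-, 6.81- and 6.57-fold for Fermt3, Parvg and Ptk2b. The fitted log2 fold change of Itga4 was −1.25 (SE 0.77, unadjusted p = 0.168), and −0.27 without sort 3.

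Several of these genes are neighbours on the chromosome. Itgam, Itgax and Itgad follow each other on chromosome 7 between 128062640 and 128223816, with 11.1 and 3.72 kb between them, and Itgal lies 728 kb before Itgam. Parvb and Parvg are 8.34 kb apart on chromosome 15, and Itga1 and Itga2 are 21 kb apart on chromosome 13. Parvb and Parvg, though adjacent, differed in opposite directions in sorts 2 and 3.

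The 250 bases before the transcription start are shown for Itgav, Itgb1 and 3 leukocyte chains, the only ones of the leukocyte class with a window. These 3 were each highest in wt sort 3. The windows shown differ in the number of CG dinucleotides, which are in capitals. The sequences are RefSeq promoter windows on GRCm38.p6, given 5′ to 3′ on the strand of the gene. Windows of 29 of the 43 members were counted, 36 in all. Itgam is at chr7:128062390-128062639 (plus strand), Itgax at chr7:128129300-128129549 (plus), Itgb7 at chr15:102231936-102232185 (minus), Itgav at chr2:83724147-83724396 (plus) and Itgb1 at chr8:128685404-128685653 (plus).
Itgam: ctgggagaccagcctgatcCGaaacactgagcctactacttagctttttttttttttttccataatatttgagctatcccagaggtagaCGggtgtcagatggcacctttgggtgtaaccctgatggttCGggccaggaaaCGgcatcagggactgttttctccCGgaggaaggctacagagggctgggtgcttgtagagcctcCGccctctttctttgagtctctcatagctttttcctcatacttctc
Itgax: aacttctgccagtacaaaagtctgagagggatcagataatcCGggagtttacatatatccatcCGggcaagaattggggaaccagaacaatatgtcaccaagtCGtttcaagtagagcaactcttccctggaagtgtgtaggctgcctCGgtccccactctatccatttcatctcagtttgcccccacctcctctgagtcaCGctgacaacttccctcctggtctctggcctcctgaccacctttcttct
Itgb7: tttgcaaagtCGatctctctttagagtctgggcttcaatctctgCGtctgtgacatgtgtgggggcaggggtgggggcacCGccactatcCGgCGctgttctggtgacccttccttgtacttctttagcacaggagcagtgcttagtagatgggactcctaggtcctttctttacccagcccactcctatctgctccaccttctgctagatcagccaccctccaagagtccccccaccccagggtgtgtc
Itgav: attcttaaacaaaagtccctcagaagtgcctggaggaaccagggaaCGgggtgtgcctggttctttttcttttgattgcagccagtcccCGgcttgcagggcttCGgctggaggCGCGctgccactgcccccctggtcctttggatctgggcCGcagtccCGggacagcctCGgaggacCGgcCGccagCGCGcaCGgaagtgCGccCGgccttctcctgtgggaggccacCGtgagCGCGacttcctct
Itgb1: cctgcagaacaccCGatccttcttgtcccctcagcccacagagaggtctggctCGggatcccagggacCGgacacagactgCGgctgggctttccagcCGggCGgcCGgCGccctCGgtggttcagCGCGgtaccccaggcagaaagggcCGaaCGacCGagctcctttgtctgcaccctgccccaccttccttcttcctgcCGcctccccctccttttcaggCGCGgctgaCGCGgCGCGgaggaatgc

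The leukocyte windows hold 6, 5 and 5 CG dinucleotides in the order shown, and those of Itgav and Itgb1 hold 18 and 21. CG reads the same on both strands. At least 1 CG is found in 92.1% of the 32851 promoter windows of this length that were counted, which have a median of 6. The 17 windows of matrix-binding chains have a median of 11 and run from 2 to 22. The 16 windows of adhesion site proteins have a median of 15 and run from 1, in Fermt3, to 32, in Ilk. No window of Lims2 was counted, so the values for adhesion site proteins leave it out. Itga2b and Itga10 are matrix-binding chains with 2 CG each, so the classes overlap. These counts describe the sequence and were not related to the levels by a test.

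The second comparison asked which of these genes differed between the sorting dates. The date term of the same model gave 0 members with an adjusted p under 0.05 in edgeR's quasi-likelihood test, as for all genes (0 of 13475, 0%). At an unadjusted p under 0.05 there were 6 of 41 members (Itgav, Itga8, Itga5, Itga7, Itgb8 and Itga11), all matrix-binding chains, against 8.28% of all genes tested. DESeq2's likelihood ratio test called 403 genes, with Itgav, Itga8 and Itga5 among them. Itgav had the smallest value of the members (unadjusted p = 0.000212, adjusted p = 0.57 in edgeR's quasi-likelihood test), and without sort 2 it was called, with an adjusted p of 0.0409. From sort 1 to sort 3 it was 3.85 times lower in wt and 4.61 times lower in the libraries labelled flt3L-/-, a difference between the dates larger than that between the groups. Itga5 was 1.65 times lower in wt and 1.72 times lower in the libraries labelled flt3L-/-. Itgb1 showed no such course, with its highest value in sort 3 labelled flt3L-/-. The sum of the 12 alpha chains that can pair with Itgb1, in this list, was 0.499, 0.449 and 0.27 times Itgb1 per kb in wt, and 0.425, 0.322 and 0.212 times in those labelled flt3L-/-. This sum was formed after the values had been seen. It was lower in the library labelled flt3L-/- in each sort, by 0.23, 0.48 and 0.35 on the log2 scale.

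The ligands of these receptors were followed in a list of 32 genes, of which 31 were tested. At an unadjusted p under 0.05, 5 were lower (Fbn1, Col3a1, Col1a2, Col1a1 and Postn) against 2.49% of all genes tested and 2 higher (Icam1 and Icam2) against 1.11%, 0 passed the adjusted threshold in edgeR, and the median log2 fold change was −0.17. The microfibril protein Fbn1, a ligand of Itgav-containing integrins, had 354, 351 and 120 CPM in wt, and 250, 162 and 37.0 CPM in those labelled flt3L-/-, with a log2 fold change of −1.10 (SE 0.26, unadjusted p = 0.00873). DESeq2 gave Fbn1 an adjusted p of 0.0492. The fibrillar collagens Col3a1 and Col1a2 had log2 fold changes of −1.02 (SE 0.27) and −1.01 (SE 0.29), and −0.68 and −0.66 without sort 3. Per kb, the most abundant ligands were the basement membrane collagens Col4a1 and Col4a2 and thrombospondin-1 (Thbs1), with log2 fold changes of −0.23 (SE 0.35), −0.16 (SE 0.31) and −0.78 (SE 0.43). Without sort 3, Thbs1 was at −0.21. Col1a1 and Col1a2 are also among the fibroblast markers, whose 7 genes all had fitted values below 0.

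Of 30 other adhesion site proteins, 30 were tested, and 1 was lower and 0 higher at an unadjusted p under 0.05 (2.49% and 1.11% of all genes tested were), with a median log2 fold change of 0.07. The lower one was Arhgef6, an exchange factor that binds parvins, at −0.56 (SE 0.19, unadjusted p = 0.0337). The most abundant were alpha-actinin-4 (Actn4), Sorbs3 and filamin A (Flna), at 0.21 (SE 0.17), 0.18 (SE 0.20) and −0.58 (SE 0.31), the last at −0.18 without sort 3. Tns3 and Lpp, with the next smallest p-values, were at −0.60 (SE 0.23) and −0.34 (SE 0.17), and Lpp at −0.17 without sort 3.

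Of 19 integrin regulators, 19 were tested, 2 were higher and 0 lower at an unadjusted p under 0.05 (1.11% and 2.49% of all genes tested were), and the median log2 fold change was 0.05. Rras, a small GTPase that raises integrin activity, had 159, 178 and 183 CPM in wt, and 215, 231 and 243 CPM in those labelled flt3L-/-, with no overlap and a log2 fold change of 0.41 (SE 0.12, unadjusted p = 0.0202). Plaur, the urokinase receptor, had 85.8, 72.7 and 95.6 CPM in wt, and 101, 103 and 203 CPM in those labelled flt3L-/-, with a log2 fold change of 0.61 (SE 0.20, unadjusted p = 0.0308), and 0.37 without sort 3. The tetraspanins Cd81 and Cd9 and caveolin-1 (Cav1), the most abundant regulators per kb, were at 0.26 (SE 0.16), 0.09 (SE 0.22) and 0.25 (SE 0.21). None of the genes of the 3 lists passed the adjusted threshold in edgeR's quasi-likelihood test.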

How the data were processed

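RNA of sorted cardiac SP cells was sequenced in 6 libraries, which GEO's labels put into 3 pairs by sorting date. The deposited values are raw counts per gene made by the authors. Libraries were unstranded, reads were mapped to mm10 with STAR 2.5.2a, and reads starting in an exon of a gene of the Ensembl annotation were counted with qCount of QuasR. Genes were matched to symbols, positions and exon lengths through GENCODE on GRCm38, which held 50376 of the 50600 identifiers. Totals lay between 24370913 and 31145519 counts, which sets the precision of rare transcripts. Protein-coding genes with over 1 CPM in at least 2 libraries were tested in edgeR 4.0.16 on R 4.3.3 (TMM factors, glmQLFit and glmQLFTest with legacy = TRUE) with genotype and sorting date as terms, and p-values were adjusted by Benjamini and Hochberg over all 13475 genes. SEs were the log2 fold change over the root of F, and differences within a date from log2 CPM with a prior count of 2. The model was tested on simulated data with no date effect, less spread than these libraries and larger changes than most fitted here. That test therefore does not show its power for these genes.

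The pairing comes from the sorting dates in the labels and from the paired sorts of the study's methods. Deviations from the group means correlated across genes within dates with r = 0.180, 0.104 and 0.116. Between different dates r ran from −0.354 to 0.247, with wt sort 2 and sort 1 labelled flt3L-/- at the upper end. For wt sort 3 and sort 2 labelled flt3L-/- it was 0.191, so these correlations do not single out the pairs. No library was a copy of another, since pairwise chi-square statistics were 54.6 or more per degree of freedom. Nothing in the labels ties a pool to named animals, so p-values measure the spread between these pools. Alternatives were DESeq2 1.42.0 (its size factors and its test), no filter, all biotypes, legacy = FALSE, no date term, each sort left out, and other lengths or classes for the ratio. The 43 genes and all lists of ligands, regulators and markers were chosen with earlier results of these data known. All 43 genes are named. Of each pathway list the 3 most abundant genes per kb and the 3 with the smallest p are named, and other names were added after their values were seen. Markers of macrophages, neutrophils, T cells, B cells, platelets, cardiomyocytes, Schwann cells and mesothelium were measured too. Their summed levels were at most 1665, 204, 168, 2.64, 8.57, 184, 3.48 and 60.7 CPM in a library. All columns of the table were used.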

Additional observations from a re-analysis of the deposited data

How the results depend on the processing

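Under the 6 alternatives that kept all libraries, the log2 fold changes of the 41 members tested had the same sign as above. With each sort left out in turn, 22 of 41 had the same sign throughout, and 19 took the other sign at least once. Their lowest and highest log2 fold changes were Itga1 (−0.17 to 0.38), Itga2 (−0.71 to 0.26), Itga10 (−1.20 to 0.12), Itga3 (−0.15 to 0.31), Itga6 (−0.80 to 0.53), Itga9 (−0.75 to 0.45), Itgb3 (−0.70 to 0.14), Itgam (−2.39 to 0.55), Itgb7 (−1.13 to 0.71), Tln1 (−0.79 to 0.11), Tln2 (−0.999 to 0.074), Fermt3 (−1.10 to 0.20), Lims1 (−0.044 to 0.12), Parva (−0.025 to 0.039), Parvg (−1.71 to 0.22), Vcl (−0.27 to 0.10), Zyx (−0.16 to 0.14), Ptk2 (−0.10 to 0.28) and Ptk2b (−1.39 to 0.041). Of the 17 pathway genes, 4 did so, namely Col4a1 (−0.70 to 0.044), Col4a2 (−0.56 to 0.039), Sorbs3 (−0.0018 to 0.40) and Cd9 (−0.16 to 0.34). Itgav stayed between −0.67 and −0.54, Parvb between 0.65 and 0.84, and Itgb8 between −1.93 and −0.73.

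DESeq2's test called 21 genes in place of 0 between the groups, and put 5 members in place of 3 below an unadjusted p of 0.05 on the lower side (Itga4, Itga8, Itgav, Itgax and Itgb8). For the date it called 403 genes in place of 0 and 3 members in place of 0. Without the pairing by date (no replicate block), 0 members in place of 3 were lower at that unadjusted p, Itgav had an unadjusted p of 0.437 in edgeR, and Itgb1 stayed at 0.13. With a sort left out, members higher at that p numbered 0 to 1. Parvb was in none of these sets, and the 1 was Itgb7 without sort 3. Dates gave 0 to 112 genes and 0 to 1 member (Itgav, without sort 2). The mean log2 ratio of leukocyte to matrix-binding chains ran from −1.88 to 0.19 with a sort left out, the last value without sort 3. The median of the leukocyte chains ran from −1.98 to −0.11 around −1.24, and leaving out Itgad, a choice made after seeing the data, gave −1.18. Itgad could not be tested without sort 2 or sort 3, nor Itgae without sort 2. With 2 residual degrees of freedom, the design gives wide errors, and depth limits Itgad, Itgae, Itgb6 and Fermt1, of which no library held more than 105 counts.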
